A study of Mus musculus with 20 samples.

Results

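Collagens and laminins are the structural proteins of the extracellular matrix, and their genes were followed here in organoids of mouse stomach, which are cultures of gastric epithelial cells. Every row of the gene table whose symbol has the form of a collagen alpha chain (Col, a type number, a and a chain number) or of a laminin alpha, beta or gamma chain was taken. This gave 55 of 24047 genes, of which 44 encode collagen chains and 11 laminin chains. Messenger RNA was sequenced in 20 libraries from 8 organoid lines on the BL/6 background, and libraries that share a title number were taken as the same line. The p53 knockout (KO) lines were 794 and 801 (dysplastic, KO made in vivo, 6 libraries), 650 (non-dysplastic, KO made in vivo, 2 libraries) and 1270 (non-dysplastic, KO made ex vivo, 2 libraries). The wild-type (WT) lines were 565 and 752 (dysplastic, 6 libraries) and 300 and 1269 (non-dysplastic, 4 libraries). All lines were grown in conditioned medium. The labels give neither the p53 allele, nor how it was deleted, nor whether lines came from separate animals, so the tests measure the spread between these lines only.

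A basement membrane is the thin sheet on which an epithelium stands. It is built from a laminin network, each laminin being a trimer of an alpha, a beta and a gamma chain, and a network of collagen IV, tied together by nidogens and perlecan. Epithelial cells make laminins and part of the collagen IV themselves, whereas the fibrillar collagens I, III and V, which form the ropes of the stroma, are made mainly by fibroblasts. Laminin alpha 3 and beta 3 belong to a laminin that anchors epithelia through integrin alpha 6 beta 4, and collagen VII forms the anchoring fibrils beneath it.

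Libraries held 5669521 to 16323270 counts, and lines held 22217126 to 36880593 counts after their libraries were summed. Levels are given as CPM, a gene's counts relative to its library's total after TMM, a correction for composition. Line values are in the order 794, 801, 650 and 1270 for KO lines and 565, 752, 300 and 1269 for WT lines throughout. Trp53, the gene that encodes p53, ranged from 4.43 to 32.8 CPM in KO libraries, with a median of 14.8, and from 98.1 to 165 CPM in WT libraries, with a median of 144, so the labels and the target gene go together in every library. The epithelial markers Epcam, Cdh1, Krt8, Krt18 and Krt19 summed to between 9651 and 13078 CPM in KO lines and between 12261 and 13553 CPM in WT lines. Of the gastric markers, Tff1 was under 0.5 CPM in every line, while Gkn1 and Muc5ac, markers of surface mucous cells, stood at 3760 and 461 CPM in KO line 794 and at 463 and 185 CPM in KO line 1270, against at most 160 and 8.54 CPM in the other lines. The last-numbered library of 6 lines (794-3, 801-3, 650-2, 565-3, 752-3 and 300-2) stood apart by transcript length. In these libraries the tercile of genes with the longest transcripts lay 0.23 to 0.49 lower in median log2 CPM than in the other libraries of their lines, and the shortest tercile 0.19 to 0.41 higher. Of the collagen and laminin genes that could be tested, 94.3% fall in the longest tercile. Lamc1, for instance, had between 0.426 and 0.594 times the CPM of the other libraries of the line, and was lower in 6 of 6, so the tests were repeated without these 6 libraries.

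The collagen and laminin messages of these organoids were mostly those of a basement membrane. Summed over all 55 genes, they came to between 1657 and 3274 CPM per KO line and between 1768 and 2374 CPM per WT line. The 11 laminin and 6 collagen IV chains together made up 73% (line 794) to 90.6% (line 1270) of this sum, and the 11 fibrillar collagens 1.16% (line 794) to 2.82% (line 650). Corrected for transcript length, the basement membrane chains made up 69% to 89.4% and the fibrillar chains 1.13% to 2.95%. In bulk samples such as these, fewer cells of a type and less RNA per cell cannot be told apart.

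Levels per kilobase of transcript, the scale on which genes can be compared with each other, formed a high and a low set. In the high set Lamb3 had a mean over the 8 lines of 65.6 CPM per kilobase, Col18a1 47.5, Lamc1 36.7 and Lama5 32.6. The spread between lines was 12.7 for Lamb3 and 37.2 for Col18a1 (SD of CPM per kilobase, 8 lines). In line 794 Lamb3 was at its lowest, 39 CPM per kilobase, and Col18a1 at its highest, 138. Lamb3 was the higher of these 2 genes in every other line. Col4a1 (16.5), Lamb2 (14.5), Col4a2 (13.2), Lama3 (12.9), Lamb1 (9.16) and Col4a5 (8.99 CPM per kilobase) came next, with neighbours within each other's spread. The place of Lamb1 rests largely on line 794, at 41.9 CPM per kilobase. Its SD was 13.5, and its lowest line, 1270, was at 1.22. Below these stood Col27a1, the highest fibrillar chain, at 2.8 CPM per kilobase, and then Col9a3 at 1.32. The first stromal fibrillar chain in the order was Col1a1, at 0.958 CPM per kilobase with an SD of 0.913.

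**Figure D1:**
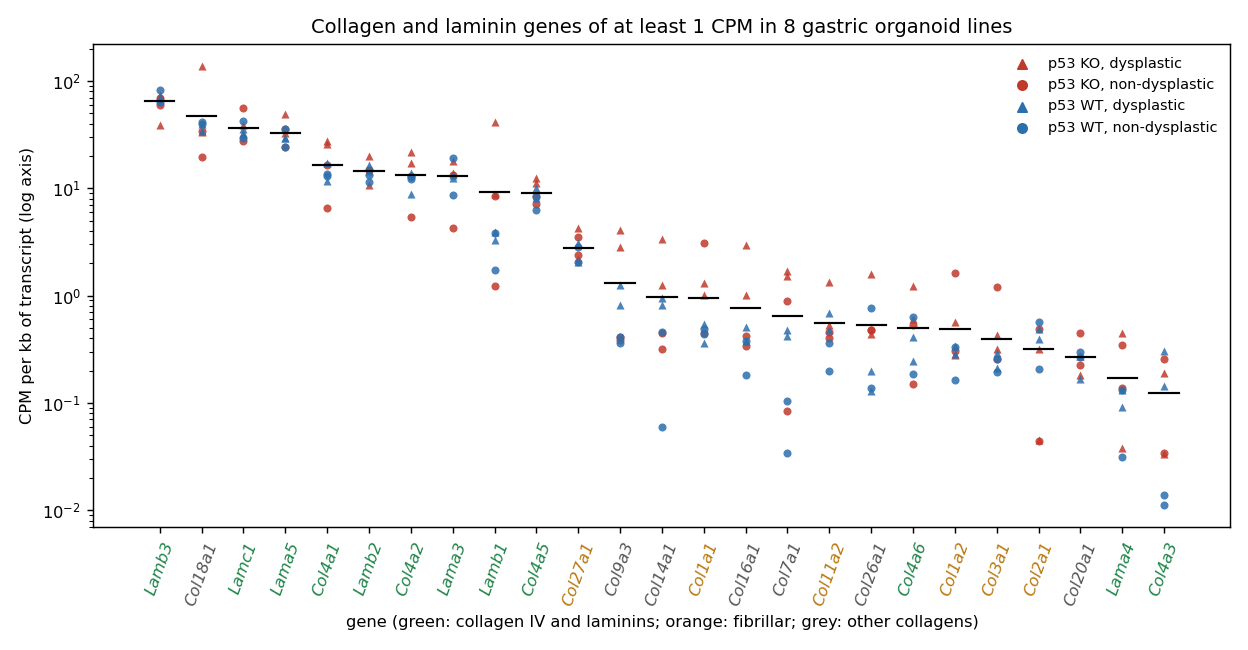
Levels of collagen and laminin genes with a mean of at least 1 CPM, as CPM per kilobase of transcript on a log axis, in 8 organoid lines (red, p53 KO; blue, WT; triangles, dysplastic; circles, non-dysplastic); the black bar is the mean over lines. The 10 genes on the left, 9 of them laminin or collagen IV chains, lie above 8 CPM per kilobase on average, and every fibrillar chain (orange) averages below 3.

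In CPM, 7 of the 55 genes averaged at least 100 over the 8 lines, 5 averaged 10 to 100, 14 averaged 1 to 10 and 29 averaged under 1. Only 35 of the 55 passed the filter on low counts that the tests require: 8 of 11 laminins, 6 of 6 collagen IV chains, 8 of 11 fibrillar collagens, 5 of 9 fibril-associated collagens, 2 of 6 collagen VI chains, 2 of 2 multiplexins (the collagens XV and XVIII), 1 of 3 of the network-forming collagens VIII and X, 1 of 4 transmembrane collagens, collagen VII, and 1 of the 2 others. The genes below the filter include Lama1, Lama2 and Lamc3 among laminins, with 3, 32 and 20 counts over all 20 libraries, and the cartilage collagen genes Col9a1, Col10a1 and Col11a1, with 4, 1 and 7 counts. Col6a4 had no count among the 236116289 counts of all libraries, which allows a level of up to 0.0127 CPM, counting error only.

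The alpha 3 and beta 3 chains of the anchoring laminin were present in quantity in every line. Lamb3, the beta 3 chain, had 190, 358, 339 and 289 CPM in KO lines and 325, 346, 307 and 398 CPM in WT lines. Line 794 was the lowest line. The Lamb3 libraries of line 794 lay at 209, 194 and 153 CPM, all below the WT libraries, which ran from 233 through a median of 338 to 492 CPM. Lama3, the alpha 3 chain, had 147, 191, 141 and 45.2 CPM in KO lines and 130, 141, 91.9 and 200 CPM in WT lines. Its lowest line was 1270, whose 2 libraries had 73.7 and 24.1 CPM, while WT libraries ran from 78 through a median of 124 to 283 CPM. Neither chain separated KO from WT lines.

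Among the other laminin chains, Lama5 and Lamc1, widely used in epithelial basement membranes, lay between Lamb3 and Lama3 in CPM per kilobase. Lama5, the alpha 5 chain, had 559, 370, 406 and 274 CPM in KO lines and 338, 337, 276 and 408 CPM in WT lines, and its libraries spanned 270 to 789 CPM in KO and 260 to 461 CPM in WT. Lamc1, the gamma 1 chain, had 247, 294, 211 and 422 CPM in KO lines and 246, 269, 226 and 325 CPM in WT lines, line 1270 being highest, and its libraries spanned 126 to 432 CPM in KO and 134 to 385 CPM in WT. Lamb2, the beta 2 chain, had 60.8, 112, 83.1 and 83.7 CPM in KO lines and 81.6, 92.2, 63.9 and 75.3 CPM in WT lines, with libraries from 56.1 to 122 CPM in KO and from 51.9 to 110 CPM in WT. The ranges of the 2 genotypes overlap for all 3 chains.

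Lamb1, the beta 1 chain, was the laminin whose level differed most between lines. It had 242, 51.4, 49.3 and 7.06 CPM in KO lines and 22.4, 19, 10 and 22.2 CPM in WT lines. The 3 KO lines made in vivo were above every WT line, and KO line 1270, made ex vivo, was below all of them. Libraries of line 794 had 243, 316 and 135 CPM, while WT libraries ran from 8 through a median of 19.7 to 36.4 CPM. The log2 fold change of KO over WT, as the mean of both dysplasia classes, was 1.81 ± 0.71 (SE), and edgeR's quasi-likelihood test gave an unadjusted p of 0.0398 (adjusted p 1). Without line 794 it was 1.06, and without line 650 it was 0.82.

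Collagen IV was represented mainly by its alpha 1 and alpha 2 chains, which form the common network, and by the alpha 5 chain. The genes of the 6 chains lie in 3 head-to-head pairs, in which 2 genes share a promoter region and are read in opposite directions. In the RefSeq tables of mouse assembly GRCm38.p6, which is not the build of the counts (mm9), the starts of Col4a1 and Col4a2 on chromosome 8 lie 21 bases apart, and those of Col4a6 and Col4a5 on chromosome X 1343 bases apart. The windows from 250 bases before to 50 bases after each start are shown because the expression of these pairs is compared next. Col4a1 lies at chr8:11312777-11313076 on the minus strand and Col4a2 at chr8:11312555-11312854 on the plus strand, and capitals mark the 78 bases that both windows hold, once on each strand. Col4a6 lies at chrX:141474027-141474326 on the minus strand and Col4a5 at chrX:141475169-141475468 on the plus strand. In this second pair the windows share no base, and capitals mark the GC box core GGGCGG, read on either strand.
Col4a1: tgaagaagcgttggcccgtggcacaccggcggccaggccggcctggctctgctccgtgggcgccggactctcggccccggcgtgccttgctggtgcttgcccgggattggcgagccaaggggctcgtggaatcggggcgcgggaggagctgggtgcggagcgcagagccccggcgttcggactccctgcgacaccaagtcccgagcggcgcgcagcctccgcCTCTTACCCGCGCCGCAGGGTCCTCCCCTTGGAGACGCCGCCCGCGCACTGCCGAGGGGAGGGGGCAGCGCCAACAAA
Col4a2: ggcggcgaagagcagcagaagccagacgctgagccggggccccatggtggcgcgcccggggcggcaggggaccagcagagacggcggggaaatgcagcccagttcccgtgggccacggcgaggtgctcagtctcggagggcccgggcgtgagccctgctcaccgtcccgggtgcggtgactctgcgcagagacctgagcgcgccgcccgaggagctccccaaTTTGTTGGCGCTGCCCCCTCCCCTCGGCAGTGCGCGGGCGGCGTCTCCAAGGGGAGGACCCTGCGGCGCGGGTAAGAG
Col4a6: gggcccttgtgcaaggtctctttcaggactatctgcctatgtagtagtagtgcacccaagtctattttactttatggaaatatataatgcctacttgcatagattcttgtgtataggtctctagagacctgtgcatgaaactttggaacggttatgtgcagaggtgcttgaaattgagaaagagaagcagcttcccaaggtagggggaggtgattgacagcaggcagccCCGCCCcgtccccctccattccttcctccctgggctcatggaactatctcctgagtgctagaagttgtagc
Col4a5: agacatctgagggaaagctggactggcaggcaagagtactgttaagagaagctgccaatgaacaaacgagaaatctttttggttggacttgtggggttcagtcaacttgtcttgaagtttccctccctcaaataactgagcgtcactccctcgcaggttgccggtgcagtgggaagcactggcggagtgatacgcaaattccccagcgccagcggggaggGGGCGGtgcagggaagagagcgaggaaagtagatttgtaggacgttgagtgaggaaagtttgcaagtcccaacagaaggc

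Over all genes, 40 of the 55 had a RefSeq window, some with more than 1 start, giving 44 windows. The letters GGGCGG occurred, on either strand, in 59.1% of the 44 windows and in 35.7% of all 32851 windows. CCAAT occurred in 31.8% and 37.4%, TATAAA in 11.4% and 13.6%, and the p53 half-site, searched on both strands with no gap, in 9.09% and 8.36%. A match describes letters in a window and not a site in use.

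Col4a1 and Col4a2 followed each other closely from line to line. Col4a1 had 181, 170, 110 and 43.7 CPM in KO lines and 114, 76.5, 89.1 and 85.9 CPM in WT lines. Col4a2 had 140, 111, 84.3 and 34.5 CPM in KO lines and 90.4, 56.7, 78.7 and 82.9 CPM in WT lines. For both genes the dysplastic KO lines were highest and KO line 1270 lowest, and the genotypes overlapped. Libraries spanned 32 to 197 CPM in KO and 56.8 to 121 CPM in WT for Col4a1, and 21.8 to 150 CPM in KO and 52.4 to 115 CPM in WT for Col4a2. Over the 8 lines Pearson's r of log2(CPM + 1) was 0.97, with an exact permutation p of 4.96e-05, two-sided, and 0.000496 adjusted over the 10 chain pairs tested. Spearman's rho was 0.98 (exact permutation p 0.000397, adjusted 0.00397). Without lines 794 and 1270, the farthest from the median of Col4a1, r was 0.89. The 2 genes share the libraries and their depth, and whether reads of overlapping transcripts were split by strand was not stated in the notes used here.

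The minor alpha 3 and alpha 4 chains, partners of alpha 5 in other basement membranes, were low and also moved together. Col4a3 had 0.288, 1.63, 2.17 and 0.291 CPM in KO lines and 1.22, 2.61, 0.0954 and 0.119 CPM in WT lines. Col4a4 had 0.288, 1.14, 0.694 and 0.291 CPM in KO lines and 0.697, 1.32, 0.286 and 0.119 CPM in WT lines. Lines 801, 650, 565 and 752 were above the other lines in both genes. These are also the 4 lines highest in smooth muscle markers, at 217, 119, 34.5 and 117 CPM summed, against 2.45 to 9.64 CPM in the others, and the 3 highest Col4a3 libraries were the last-numbered 752-3, 801-3 and 650-2. The part of either was not tested. Pearson's r was 0.93 (exact permutation p 0.00345, adjusted 0.0141), rho was 0.90 (adjusted exact permutation p 0.0228), and r was 0.96 without lines 752 and 650.

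Col4a5 and Col4a6, the X-linked pair, were less alike. Col4a5 had 80.8, 73.4, 55.5 and 46.6 CPM in KO lines and 53, 66.3, 40.7 and 54 CPM in WT lines. Col4a6, the alpha 6 chain, had 8.16, 4.05, 0.998 and 3.56 CPM in KO lines and 1.63, 2.74, 1.24 and 4.21 CPM in WT lines. The correlation did not pass (r 0.66, exact permutation p 0.0743, adjusted 0.149; rho 0.52, adjusted exact permutation p 0.393), and r was 0.19 without lines 794 and 300.

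The same comparison was made between chains that share a laminin or a fibrillar trimer. Lama3 with Lamb3 (r 0.27), Lamb1 with Lamc1 (r -0.42) and Lama5 with Lamc1 (r -0.31) did not pass, with adjusted exact permutation p of 0.556, 0.503 and 0.556. Col1a1 and Col1a2 reached an r of 0.84 but missed the threshold (adjusted exact permutation p 0.0673; rho 0.40), and Col5a1 and Col5a2, the collagen V chains, had an r of -0.09 (adjusted exact permutation p 0.812). Of the pairs described, Col4a1 with Col4a2 and Col4a3 with Col4a4 passed. Not all of the 10 pairs tested are described here, so head-to-head pairs cannot be contrasted with pairs that share a trimer.

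**Figure D2:**
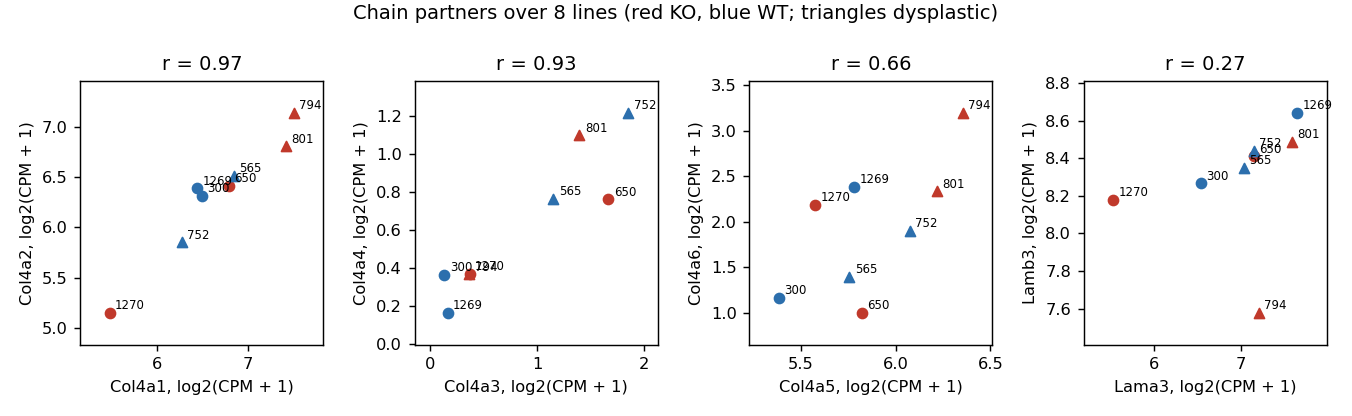
Levels of 4 chain pairs over 8 lines, each axis as log2(CPM + 1), with each point a line (red, KO; blue, WT; triangles, dysplastic; circles, non-dysplastic) and Pearson's r above each panel. Col4a1 with Col4a2 (r = 0.97) and Col4a3 with Col4a4 (r = 0.93) lie along a diagonal, Col4a5 with Col4a6 (r = 0.66) is looser, and in the panel of Lama3 with Lamb3 (r = 0.27) lines 1270 and 794 lie apart from the rest.

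Col18a1 and Col7a1 belong to the basement membrane zone but not to its networks. Col18a1, which encodes a heparan sulfate collagen of basement membranes whose end is cut off as endostatin, had 772, 188, 192 and 109 CPM in KO lines and 220, 191, 223 and 232 CPM in WT lines. The 3 libraries of line 794 had 926, 858 and 406 CPM, each above every other library of the series, the next being 311 CPM in a WT library. Without line 794 the log2 fold change of KO over WT was -0.363, against 0.32 with it, so its direction rests on that line. Col7a1, the anchoring fibril collagen, had 14, 15.5, 8.15 and 0.777 CPM in KO lines and 3.89, 4.39, 0.954 and 0.318 CPM in WT lines. Within each dysplasia class the KO lines made in vivo were above the WT lines, and line 1270 lay between WT lines 300 and 1269. Its log2 fold change of KO over WT was 2.32 ± 0.71 (edgeR unadjusted p 0.0146, adjusted p 1; DESeq2 adjusted p 0.0529).

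The fibrillar collagens were scarce, and Col1a1, Col1a2 and Col3a1 were high in single libraries. Col27a1, a fibrillar chain known from cartilage, had 16.5, 32.5, 18.2 and 26.5 CPM in KO lines and 23.3, 15.8, 15.8 and 21.8 CPM in WT lines, and was the most abundant of the 11 on both scales. Its libraries ran from 13.3 through a median of 23.3 to 41.1 CPM in KO and from 14.4 through 18.8 to 23.7 CPM in WT. Col1a1, the alpha 1 chain of collagen I, had 5.94, 7.76, 18.2 and 2.66 CPM in KO lines and 3.25, 2.14, 2.62 and 2.9 CPM in WT lines. The 2 libraries of line 650 differed, however, with 27.9 CPM in library 650-1 and 5.39 CPM in library 650-2. Libraries 794-2 (12.3 CPM) and 801-3 (14 CPM) also stood above the others of their lines, which lay between 2.28 and 7.32 CPM, and WT libraries ran from 1.09 through a median of 2.58 to 5.25 CPM.

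Col1a2, the alpha 2 chain of collagen I, and Col3a1, the chain of collagen III, were high in the same 3 libraries. In library 650-1 they stood at 13.8 and 10.7 CPM, against 1.73 and 1.22 CPM in library 650-2. Their 10 WT libraries spanned 0.747 to 2.34 CPM for Col1a2 and 0.437 to 2.18 CPM for Col3a1. Summed, the 3 genes reached 52.4 CPM in 650-1, 23.1 in 794-2 and 22 in 801-3, 6.29, 4.76 and 2.66 times the mean of the other libraries of each line, while all 10 WT libraries lay between 2.95 and 9.78 CPM. Col1a1 took 53.2% of the counts of the 3 genes in 650-1 (95% exact interval 49.4 to 57, counting error only), 53.3% in 794-2 (47.4 to 59.2) and 63.8% in 801-3 (55 to 72.1). In library 801-2 it took 81.1% (72.4 to 88.1).

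**Figure D3:**
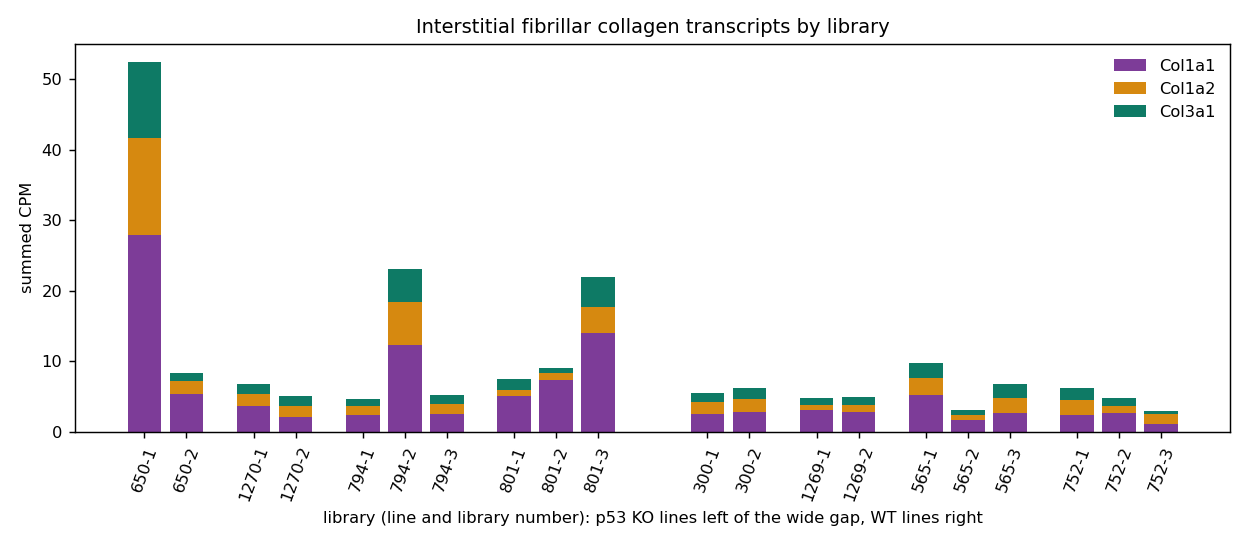
Summed CPM of Col1a1, Col1a2 and Col3a1 in each of the 20 libraries, stacked by gene, with the 10 libraries of p53 KO lines left of the wide gap and those of WT lines right of it. Libraries 650-1, 794-2 and 801-3, at 52.4, 23.1 and 22 CPM, stand above the other libraries of their own lines and above all WT libraries, the highest of which is 565-1 at 9.78 CPM.

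Fibroblast markers were low in these libraries too. Of 10 markers, 3 passed the filter (Pdgfra, Thy1 and Fbn1), and the sum over all 10 was 1.04 to 5.07 CPM in KO lines and 0.715 to 2.12 CPM in WT lines. Dcn, Lum, Postn and Dpt were each under 0.4 CPM in every line. Pdgfra reached 0.836 CPM in line 794, and Thy1 and Fbn1 reached 1.08 and 1.95 CPM in line 650. Lum and Fap were at 0 in line 801, Fap in line 300, Thy1 in lines 300 and 1269, Dpt in lines 794 and 300, Dcn in line 300 and Postn in line 1269. The sum was highest in library 650-1, at 6.25 CPM against 3.56 in 650-2, and was 5.58 CPM in 801-3, which is 3.67 times the mean of the line's other libraries, and 3.38 in 794-2, which is 1.75 times that mean. Smooth muscle markers, mostly Acta2 and Tagln, summed to 2.45 to 217 CPM in KO lines and 4.25 to 117 CPM in WT lines, and were highest in library 801-3, at 448 CPM, but were at 2.5 CPM in 794-2 and lower in 650-1 (75.2 CPM) than in 650-2 (178 CPM). Endothelial markers summed to 1.04 to 4.04 CPM in KO lines and 0.905 to 7.95 CPM in WT lines. The part of such cells in the fibrillar levels was not tested.

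Set against each other, the fibrillar sum was a small share of the basement membrane sum in every line. The fibrillar sum was 38.1, 51.1, 59.2 and 35.9 CPM in KO lines and 37.2, 27.2, 25.3 and 31.2 CPM in WT lines. The basement membrane sum was 2389, 2244, 1825 and 1501 CPM in KO lines and 1799, 1814, 1513 and 2093 CPM in WT lines. The fibrillar sum was therefore between 1.49% (line 1269) and 3.24% (line 650) of the basement membrane sum. The log2 of this ratio averaged -5.44 ± 0.42 in KO lines and -5.91 ± 0.22 in WT lines (SD, n = 4 each), a difference of 0.467, and -5.77 ± 0.29 in dysplastic and -5.58 ± 0.51 in non-dysplastic lines, a difference of -0.195. KO lines were higher by 0.594 in the fibrillar sum and by 0.127 in the basement membrane sum, both as log2. These are sums over chosen genes and carry no test. Without library 650-1 the KO minus WT difference of the ratio was 0.375, and without line 650 it was 0.302, while the dysplasia difference was 0.015 without line 650. The KO minus WT difference was 0.134 with a mean of log2(CPM + 1) in place of sums, and 0.734 without Col27a1. Without Col27a1 the fibrillar sum varied more between lines, from 9.38 CPM (line 1269) to 41 CPM (line 650).

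**Figure D4:**
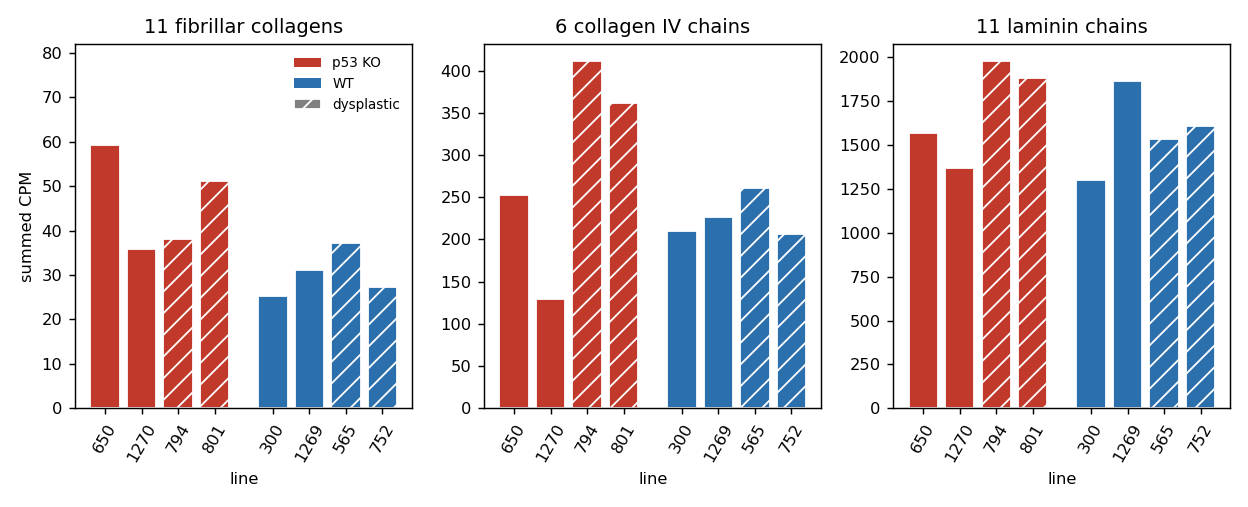
Summed CPM of the 11 fibrillar collagens, the 6 collagen IV chains and the 11 laminin chains in each line, on 3 separate scales that start at 0 (red, p53 KO; blue, WT; hatched, dysplastic). Line 650 is highest for the fibrillar sum at 59.2 CPM, dysplastic KO lines 794 and 801 are highest for collagen IV at 411 and 362 CPM, and laminin sums lie between 1303 and 1978 CPM.

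Whether KO and WT lines differed gene by gene was asked with edgeR's quasi-likelihood test on line sums, fitted over 13476 genes where a gene was called at a Benjamini-Hochberg adjusted p under 0.05. It called none of the 35 tested members and 0% of all genes in KO against WT as the mean of both dysplasia classes. DESeq2 called none of the members either and 0.542% of all genes, and limma-voom, run on libraries with lines as correlated blocks, none of 31 members and 0.497% of all genes. At an unadjusted p under 0.05, edgeR's test had 6 of the 35 members (17.1%), all with a higher mean in KO lines, against 4.03% of all genes. These were Col8a1, Col9a3, Col7a1, Col16a1, Col1a1 and Lamb1. Log2 fold changes were positive for 30 of the 35 members, with a median of 0.64, against -0.0058 over all genes tested, and negative for Col2a1, Lamb3, Col6a3, Col17a1 and Lama3. Among the positive members, Col8a1 and Col5a1 passed the low-count filter on KO lines alone, which favours a positive sign. Their WT lines were at most at 0.274 and 0.286 CPM. In the same comparison the tested fibroblast markers had a median log2 fold change of 1.59, 3 of 3 positive, and the smooth muscle markers one of 1.82, 4 of 4 positive, and their part in the members' values was not tested. Without library 650-1 the number positive was 28 of the members then tested and the median 0.558. Leaving out line 650, 801 or 794 gave medians of 0.334, 0.363 and 0.408. The number of members at an unadjusted p under 0.05 was 12 of 41 when line 1270 was left out (5.09% of all genes) and 10 of 39 when it was line 801 (7.46%). It was 3 of 41 when it was line 300 (4.82%) and 3 of 39 when it was line 752 (2.53%). No member separated the 4 KO from the 4 WT lines in either direction, while 0.92% of all genes lay above and 1.46% below.

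Of these 6, Col1a1 depended on library 650-1. Its log2 fold change was 1.63 ± 0.57 in edgeR's test (unadjusted p 0.0251, adjusted p 1), 0.95 without that library and 0.64 without line 650. Col8a1, a short-chain network collagen, had the smallest p but was near the limit of detection in WT lines. It passed the low-count filter on its KO lines alone, which favours a higher KO mean. It had 2.51, 1.44, 0.434 and 0.0971 CPM in KO lines and 0.116, 0.274, 0.0954 and 0.119 CPM in WT lines, with a log2 fold change of 2.26 ± 0.63 (edgeR unadjusted p 0.00928, adjusted p 1). Line 1270 was within the WT range. Col16a1, a fibril-associated collagen, had 15.5, 5.25, 2.17 and 1.78 CPM in KO lines and 1.98, 2.66, 0.954 and 1.95 CPM in WT lines, with a log2 fold change of 1.3 ± 0.43 (edgeR unadjusted p 0.0207, adjusted p 1). Only the dysplastic KO lines were above all WT lines.

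Within the non-dysplastic lines, 2 members (5.71%) had an unadjusted p under 0.05 in edgeR's test, against 1.91% of all genes, and none was called by edgeR, DESeq2 or limma-voom, which called 0%, 0.0445% and 0.0395% of all genes. These were Col7a1 (log2 fold change 2.81 ± 1.05, unadjusted p 0.0332) and Col4a3 (3.44 ± 1.33, unadjusted p 0.0374). Both rest on line 650, at 8.15 CPM for Col7a1 and 2.17 CPM for Col4a3. The other non-dysplastic lines, KO line 1270 included, were at most at 0.954 and 0.291 CPM. Without line 650 the median log2 fold change over members was -0.0381, against 0.251 with it, so the direction rests on that line. That median moved to 0.0201 when line 300 was left out, to 0.366 for line 1270 and to 0.795 for line 1269. The tested fibroblast markers had a median of 2.5, 3 of 3 positive, and the tested smooth muscle markers one of 3.18, 4 of 4 positive, in this comparison. Des, below the filter, was at 1.55 CPM in WT line 1269 and at most 0.0867 CPM in the other non-dysplastic lines. The part of these markers was not tested. Without the 6 last-numbered libraries Col4a3 stood at 2.48 on the log2 scale (edgeR unadjusted p 0.082), while Col1a1 (p 0.0391) and Col3a1 (p 0.0496) came under 0.05, with line 650 then held by library 650-1 alone. Within the dysplastic lines 5 members (14.3%) had an unadjusted p under 0.05, against 4.36% of all genes, all higher in KO. They were Col9a3, Col8a1, Col16a1, Col26a1 and Lamb1. Without the 6 last-numbered libraries Col26a1 had an edgeR unadjusted p of 0.0523 and Col7a1 one of 0.0339. The count was 1 of 39 without line 565 (1.8% of all genes), 2 of 38 without line 794 (2.18%) and 3 of 39 without line 752 (1.43%). It was 9 without line 1270, 650 or 801 (5.03%, 4.96% and 11.3%), 2 of them lower in KO in the last case. The tested fibroblast markers had a median log2 fold change of 1.09, 3 of 3 positive, and the tested smooth muscle markers one of 0.46, 3 of 4 positive. EdgeR called none, against 0% of all genes. DESeq2 called Col9a3, against 0.512% of all genes, and limma-voom called Col9a3, Col8a1 and Col16a1, against 0.797% of all genes.

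Dysplastic lines set against non-dysplastic ones, averaged over genotypes, gave the largest number of members at an unadjusted p under 0.05, with 9 of 35 (25.7%) against 5.91% of all genes. Among them, means were higher in dysplastic lines for Col9a3, Col16a1, Col14a1, Col4a5, Col7a1, Col8a1 and Col11a2 and lower for Col6a3. Without the 6 last-numbered libraries Col4a1 (p 0.0491) and Col4a4 (p 0.0454) also came under an edgeR unadjusted p of 0.05, in 11 of 34 members against 8.34% of all genes. EdgeR called none of the members and 0% of all genes after adjustment. DESeq2 called Col9a3, Col14a1 and Col7a1, against 1.14% of all genes, and limma-voom called Col7a1 and Col9a3, against 1.09% of all genes. All 4 dysplastic lines lay above all 4 non-dysplastic lines for Col9a3, Col14a1 and Col11a2, which is 3 of the 35, against 1.74% of all genes, and for no member did they lie below, against 1.31% of all genes. Log2 fold changes were positive for 23 members and negative for 12, with a median of 0.435, against -0.0165 over all genes. Leaving out line 650, 300 or 1269 gave medians of 0.878, 0.231 and 0.662. Smooth muscle markers had a median of 1.89, 4 of 4 positive, and fibroblast markers one of 0.63, 3 of 3 positive, in this comparison, and their part was not tested.

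Col9a3, a chain of the fibril-associated collagen IX of cartilage, had the smallest p of the members in this comparison. In dysplastic lines it had 12.5 and 8.61 CPM with p53 KO and 3.78 and 2.5 CPM in WT, and in non-dysplastic lines 1.26 and 1.17 CPM with KO and 1.24 and 1.11 CPM in WT. The mean of the dysplastic lines was 6.83 ± 4.58 CPM, and that of the non-dysplastic lines 1.19 ± 0.0673 CPM (SD, n = 4 each). All 12 dysplastic libraries, from 1.92 through a median of 5.25 to 17 CPM, lay above all 8 non-dysplastic libraries, from 0.446 through 1.24 to 1.79 CPM. The log2 fold change was 2.26 ± 0.28 (edgeR unadjusted p 9.9e-05, adjusted p 0.419). The adjusted p was 4.22e-09 in DESeq2 and 0.00542 in limma-voom. Leaving out any of the 8 lines gave log2 fold changes from 2.09 to 2.4. Among dysplastic lines KO was above WT, with a log2 fold change of 1.75 ± 0.38 (edgeR unadjusted p 0.00268, adjusted p 1; DESeq2 adjusted p 0.0118), and the interaction of genotype with dysplasia, 1.71 ± 0.54 on the log2 scale, had an edgeR unadjusted p of 0.017 and an adjusted p of 1. Its partner chains Col9a1 and Col9a2 were below the filter, with 4 and 32 counts over all libraries.

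Col14a1, a fibril-associated collagen, had 21.7, 8.16, 6.1 and 5.27 CPM in dysplastic lines 794, 801, 565 and 752 and 2.04, 2.91, 0.382 and 2.98 CPM in non-dysplastic lines 650, 1270, 300 and 1269. The log2 fold change was 2.16 ± 0.62 (edgeR unadjusted p 0.0106, adjusted p 0.649; DESeq2 adjusted p 0.0231). Libraries overlapped through library 752-3, which had 1.64 CPM, while non-dysplastic libraries reached 4.11 CPM. The last-numbered libraries were lower than the others of their line for this gene in 6 of 6 lines. Col11a2, a fibrillar chain, had 8.02, 3.2, 4.18 and 2.91 CPM in dysplastic lines and 2.43, 2.78, 2.19 and 1.19 CPM in non-dysplastic lines, with a log2 fold change of 1.09 ± 0.4 (edgeR unadjusted p 0.0301, adjusted p 0.783). Its lowest dysplastic line (752) is close to its highest non-dysplastic line (1270), and its libraries overlap, from 1.84 through a median of 3.96 to 11.7 CPM in dysplastic and from 1.07 through 1.81 to 3.96 CPM in non-dysplastic lines.

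**Figure D5:**
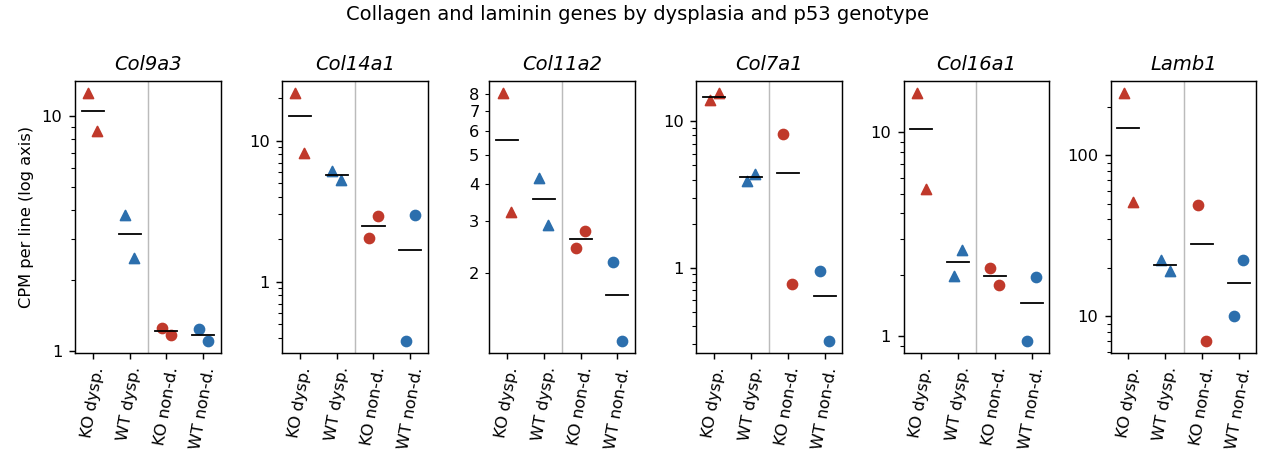
Levels of 6 genes as CPM on log axes, with 2 lines in each combination of dysplasia and genotype (dysplastic left of the grey line, non-dysplastic right of it; red, p53 KO; blue, WT) and bars at the mean. Col9a3, Col14a1 and Col11a2 separate dysplastic from non-dysplastic lines, while Col7a1, Col16a1 and Lamb1 overlap and are highest in dysplastic KO lines.

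Col4a5 had 80.8, 73.4, 53 and 66.3 CPM in dysplastic lines and 55.5, 46.6, 40.7 and 54 CPM in non-dysplastic lines, with libraries from 48.9 through a median of 69.3 to 96.8 CPM in dysplastic lines and from 40.3 through 49 to 61.5 CPM in the others. The log2 fold change was 0.46 ± 0.14 (edgeR unadjusted p 0.0147, adjusted p 0.7). The gene lies on the X chromosome, and Xist, which marks cells with an inactive X chromosome, was at 0.381 to 1.02 CPM in libraries of non-dysplastic lines 650 and 300 and at 256 CPM or more in all others, so the dysplastic group holds no line without Xist. Among lines with Xist the dysplastic values overlap those of non-dysplastic lines 1270 and 1269, at 46.6 and 54 CPM, and the part of sex in this difference was not tested. Col6a3, a collagen VI chain, was at 4.65 CPM in non-dysplastic line 1269 and at most 0.781 CPM in the other 7 lines, dysplastic or not. The value of line 1269 came mostly from library 1269-2, at 8.35 CPM, and the median of the 8 non-dysplastic libraries was 0.337 CPM.

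The interaction of genotype with dysplasia called no member and 0% of all genes in edgeR's test, DESeq2 and limma-voom. At an unadjusted p under 0.05 edgeR's test had 3 members (8.57%), against 1.79% of all genes, among them Col9a3 and Col4a3 (log2 -4.44 ± 1.72). For Col4a3, line 650 was at 2.17 CPM and the other non-dysplastic lines were at most at 0.291 CPM. Without the 6 last-numbered libraries Col4a3 had an edgeR unadjusted p of 0.0646 and Col4a2 one of 0.0371. The median log2 value over members was 0.263, against 0.0449 over all genes tested. Leaving out 1 line at a time moved the median over members between -0.196 (without line 1269) and 1.36 (without line 650). The medians over all genes were then -0.0362 and 0.0701.

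Among non-dysplastic KO lines, the line made ex vivo (1270) and the line made in vivo (650) could only be set side by side, since each is 1 line. Of the 26 genes with a mean of at least 1 CPM, 19 (73.1%) were lower and 7 higher in line 1270, against 50.1% of all genes of that level that were lower. Col7a1 stood at 0.777 CPM in line 1270 and 8.15 CPM in line 650, Lamb1 at 7.06 and 49.3 CPM, Col1a1 at 2.66 and 18.2 CPM (5.39 CPM in library 650-2 and 27.9 CPM in 650-1), and Col4a1 at 43.7 and 110 CPM. Lamc1 went the other way, at 422 CPM in line 1270 and 211 CPM in line 650, as did Col4a6, at 3.56 and 0.998 CPM.

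Genes that modify, cut, cross-link, tie or bind these proteins were taken as 4 further lists, and edgeR's test called none of their members in KO against WT. Of 16 genes for collagen modification and secretion, 14 were tested, 2 had an unadjusted p under 0.05, both higher in KO lines, against 4.03% of all genes, and the median log2 fold change was 0.09. Serpinh1, which encodes the collagen chaperone HSP47, had 8.42, 14.4, 4.51 and 0.291 CPM in KO lines and 1.48, 2.74, 0.334 and 0.477 CPM in WT lines. Its log2 fold change was 2.48 ± 0.78 (edgeR unadjusted p 0.0166, adjusted p 1), and line 1270 was again below the WT lines. Colgalt2, a collagen galactosyltransferase, had 5.54, 0.783, 0.737 and 0.227 CPM in KO lines and at most 0.286 CPM in WT lines (log2 3.02 ± 0.8, edgeR unadjusted p 0.00732). Colgalt2 passed the low-count filter on KO lines alone, which favours a higher KO mean. The next by p were P4ha3 (1.62 ± 0.76) and Crtap (0.19 ± 0.1), which act in proline hydroxylation.

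Of 15 genes for collagen trimming and cross-linking, 10 were tested, and 4 had an unadjusted p under 0.05 in edgeR's test, against 4.03% of all genes. All 4 were higher in KO lines. The median log2 fold change was 0.93, beside 1.59 for the tested fibroblast and 1.82 for the tested smooth muscle markers. They were the lysyl oxidases Loxl1 (2.65 ± 0.88) and Loxl2 (1.33 ± 0.48), the procollagen protease Bmp1 (0.81 ± 0.32) and the collagen-binding protein Sparc (1.87 ± 0.73). Loxl1 had 4.09, 8.42, 2.86 and 0.162 CPM in KO lines, against 0.191 to 1.76 CPM in WT lines. Of the 6 basement membrane linkers all were tested, none had an unadjusted p under 0.05, against the same 4.03%, and the median log2 fold change was 0.08. Nid2, encoding nidogen 2, was highest in line 794, at 94.9 CPM, against 11.1 to 31.3 CPM in the other KO lines and 16 to 30.8 CPM in WT lines. Nid1 (0.42 ± 0.36), Agrn (0.13 ± 0.16) and Fbln1 (0.02 ± 0.32) are the other linkers with the smallest p.

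Of 15 receptor genes, 12 were tested, 1 had an unadjusted p under 0.05, against 4.03% of all genes, and the median log2 fold change was 0.03. This was Itgb4, the beta 4 integrin chain that binds the anchoring laminin. It had 291, 269, 294 and 249 CPM in KO lines and 489, 376, 409 and 525 CPM in WT lines. All 4 KO lines lay below all 4 WT lines, as they did for 1.46% of all genes. The log2 fold change was -0.7 ± 0.15 (edgeR unadjusted p 0.00229, adjusted p 0.857). Its partner chain Itga6 averaged 492 ± 74.1 CPM over KO lines and 496 ± 18.1 CPM over WT lines (SD, n = 4 each). Itga7 (0.34 ± 0.27), Itga3 (0.2 ± 0.22) and Ddr2 (0.26 ± 0.47) followed by p.

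Dysplastic against non-dysplastic lines, the same 4 lists had 4, 2, 0 and 1 members at an unadjusted p under 0.05 in edgeR's test, all higher in dysplastic lines, against 5.91% of all genes, with median log2 fold changes of 0.26, 0.76, 0.18 and 0.05. The members tested were 14, 10, 6 and 12. The smooth muscle and fibroblast medians given above for this comparison are 1.89 and 0.63. Among the listed genes under 0.05 were Bmp1 (1.24 ± 0.32, unadjusted p 0.0066), Serpinh1 (2.31 ± 0.78, unadjusted p 0.022) and the laminin receptor Bcam (0.45 ± 0.17, unadjusted p 0.0352), and none was called after adjustment.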

How the data were processed

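The deposited tables hold read counts per gene, which the authors made with bcl2fastq and STAR 2.5 on mouse build mm9, per the submitters' processing notes. The counting tool, annotation and strand setting were not stated in those notes. Counts of the libraries of a line were summed, genes were filtered with filterByExpr (13476 kept) and scaled by TMM. EdgeR 4.0.16 (R 4.3.3) fitted 4 group means with the robust quasi-likelihood test, checked on simulated data. DESeq2 1.42.0, limma 3.58.1 (voom), other scaling and filters, and leaving out lines or libraries were alternatives. Chain pairs were compared over 8 lines by exact permutation (scipy 1.17.1). Levels per kilobase used the length of each gene's longest protein-coding transcript in the GENCODE annotation of GRCm38, and promoter windows used RefSeq GRCm38.p6. Members, lists and tests were chosen with earlier results of these data known. Described in full were genes of at least 10 CPM on average and those whose lines did not overlap between groups (15 genes, of which 1 is not reported here), and others were chosen after their values were seen. In the lists of other genes, the 4 with the smallest p were named. With 1 count equal to 0.176 CPM in the smallest library, levels under 1 CPM rest on few counts.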

Additional observations from a re-analysis of the deposited data

Results flagged for a closer look

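Col18a1 stood at 772 CPM in KO line 794, against 109 to 192 CPM in the other KO lines. Col11a2 stood at 8.02 CPM in the same line, against 2.43 to 3.2 CPM in the other KO lines. In both cases the gap to the nearest line took more of the range of the 4 KO lines (0.875 and 0.862) than Dixon's 95% critical value for 4 samples allows. Of 40 groups of lines examined in this way these 2 stood out, and chance alone marks about 1 in 20.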

How the results depend on the processing

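EdgeR called 0 members in every comparison under each of its alternatives. DESeq2 called 1 member in dysplastic KO against WT lines and 3 in dysplastic against non-dysplastic lines, and limma-voom called 3 and 2. Library numbers were not taken as pairing, since pairs with the same number did not all deviate together: r was -0.40 to 0.52 for number 1, -0.69 to 0.45 for number 2 and 0.33 to 0.67 for number 3. With the replicate number as a block, limma-voom called 0 members in dysplastic KO against WT lines (0.3% of all genes), without Col9a3, Col8a1 and Col16a1. For dysplasia it called 2 (0.797% of all genes), Col9a3 and Col14a1, and not Col7a1. Leaving out 1 line at a time moved the log2 fold change of KO over WT for Col18a1 between -0.363 (without line 794) and 0.655, and for Col4a1 between -0.061 (without line 650) and 0.603. The correlation of Col5a1 with Col5a2 was 0.205 without the 6 last-numbered libraries. Of the other values for 24 named log2 fold changes, 344 kept their direction and their side of the threshold, and 11, all in DESeq2 or limma-voom, passed it with the same direction. Where a left-out line leaves 1 line in a combination of genotype and dysplasia, that line is assumed to vary like the others. Most fibrillar genes lie under 10 CPM, where counting error is largest. The causes of these changes were not tested.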
